A study of Mus musculus with 6 samples.

Results

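The HoxC cluster is the stretch of mouse chromosome 15 that carries 9 homeobox genes, in the order Hoxc13, Hoxc12, Hoxc11, Hoxc10, Hoxc9, Hoxc8, Hoxc6, Hoxc5 and Hoxc4. It was taken by position, from 102745001 to 102870000 in the build mm9, with Hoxc13 near 102751500 and the end of Hoxc4 near 102867000. This gave 125 bins of 1 kb, of 2638957 such bins on chromosomes 1 to 19 and X. The positions of the 7 genes between Hoxc13 and Hoxc4 in mm9 were not used here, so values within the cluster are given by distance from its left limit, the end at Hoxc13. All 9 genes matched the gene table, which follows a later build and served only for their order.

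Binding of Ezh2 was measured by chromatin immunoprecipitation and sequencing (ChIP-seq) in T helper cells of C57BL/6 mice. Naive (CD44lowCD62Lhigh) CD4+ T cells from the spleen had been cultured for 5 days, of which 2 were with plate-bound antibody to TCRβ, antibody to CD28 and IL-2, and 3 were without the stimulating antibodies. Th1 cultures held IL-12 and antibody to IL-4, and Th2 cultures held IL-4 and antibody to IFN-γ. Each cell type gave a pull-down with an anti-Ezh2 polyclonal antibody, a pull-down with rabbit IgG as control antibody and an input, with 1 library in each group. No replicate spread could therefore be measured, so intervals (95%, exact binomial) and exact tests cover counting error only, and each comparison is one between libraries rather than between cell types. Reads copied by PCR are not independent molecules. The file of the Th2 control antibody held 0 lines of chromosome 15, so the control antibody values come from Th1 alone. Nothing in the labels says how many mice or cultures a library came from. The cells were polarised in culture, and no RNA was measured here by which the labels could be checked.

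In Polycomb repressive complex 2 the enzyme is Ezh2, and the complex puts methyl groups on lysine 27 of histone H3 at genes that are kept silent. Hox genes lie in 4 clusters in mammals, and their order along the chromosome follows where they are used along the body axis. Hoxc4, Hoxc5 and Hoxc6 act toward the neck and upper trunk, and Hoxc10, Hoxc11 and Hoxc13 toward the rear. In mice, Hoxc8 and Hoxc9 pattern the trunk and its motor neurons, Hoxc13 is needed for hair and nails, and Hoxc4 has been tied to antibody gene diversification in B cells. Whole Hox clusters are among the best known Polycomb targets in cells that do not use them. Between the outer genes the table also lists Hotair, a long noncoding RNA whose human counterpart was reported to associate with Polycomb repressive complex 2, and 2 microRNA genes, Mir196a-2 (between Hoxc10 and Hoxc9) and Mir615 (next to Hoxc5).

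The sequences shown are what the annotation offers for loci inside the Ezh2 domain. The mature microRNAs of the cluster are shown with those of the same seed that come from chromosomes 11 and 6, which carry HoxB and HoxA genes. Capitals mark the seed, bases 2 to 8, and the sequences are from RefSeq (GRCm38.p6).
mmu-miR-196a-5p (Mir196a-2, chromosome 15, and Mir196a-1, chromosome 11): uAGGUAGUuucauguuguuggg
mmu-miR-196b-5p (Mir196b, chromosome 6): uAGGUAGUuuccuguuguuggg
mmu-miR-615-3p (Mir615, chromosome 15): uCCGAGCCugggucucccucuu
Mir196a-2 in the HoxC cluster and Mir196a-1 on chromosome 11 give the same mature sequence, and miR-196b-5p differs from it at 1 position outside the seed. The miR-196 family is known to act on Hox messenger RNAs, Hoxb8 and Hoxc8 among them. The miR-615-3p seed is another one.

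Of the 9 genes, 1 had an entry in the promoter table. The 250 bases before an annotated start of Hoxc4, the last gene of the cluster toward its right limit, are shown. CG dinucleotides are in capitals, since in mammals Polycomb repressive complex 2 is known to collect at stretches rich in them. The strand is plus, and the coordinates, chr15:103034145-103034394, are those of RefSeq in GRCm38.p6 and do not apply to the mm9 positions used for the reads.
Hoxc4: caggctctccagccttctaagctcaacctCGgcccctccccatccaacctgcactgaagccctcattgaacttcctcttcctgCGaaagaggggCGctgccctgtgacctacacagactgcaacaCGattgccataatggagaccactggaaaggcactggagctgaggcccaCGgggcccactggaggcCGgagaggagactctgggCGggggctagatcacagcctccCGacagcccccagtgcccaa
This stretch held 8 CG (the motif reads the same on both strands) and was 62% G or C. At least as many CG were found in 43.0% of 32851 promoter windows of that length, whose median was 6. This window was thus not set apart by its CG count. Sequence past this start, or at any other start of Hoxc4, was not counted.

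Ezh2 was enriched along nearly the whole cluster in both cell types. It held 7200 distinct Ezh2 positions in Th1 against 1102 input positions, and 13538 in Th2 against 808. A distinct position is 1 genomic interval, counted once however many reads fell on it. With each library scaled to its total, the Th1 library showed 9.42 times as much Ezh2 as input (95% interval 8.84 to 10.0). The Th2 library showed 14.4 times as much (13.4 to 15.5). The control antibody of Th1 held 668 positions and stood at 1.01-fold, an interval of 0.918 to 1.12 that includes 1.

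The depth behind these values was 10809666 positions for Ezh2 in Th1, 14963599 for Ezh2 in Th2, 15578675 and 12862628 for the inputs of Th1 and Th2, and 9326717 for the control antibody. The cluster is 0.00474% of all bins. It took 0.0666% of the Ezh2 positions in Th1 (0.0651 to 0.0682) and 0.0905% in Th2 (0.0890 to 0.0920), but 0.00707% and 0.00628% of the inputs. Reads per position in the cluster were 2.17 and 1.99 for Ezh2 in Th1 and Th2, close to the 2.24 and 2.04 over the whole libraries. Repeated reads were thus no more frequent in the cluster than elsewhere.

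When the chromosomes were tiled with windows of 125 kb, aligned to the cluster on each of them, no window stood higher. The cluster ranked 1 of 18310 windows in Th1 and 1 of 16481 in Th2, among windows with at least 500 input positions. The next window stood at 8.34-fold in Th1 and 11.1-fold in Th2, and the median window at 0.896-fold and 0.915-fold. The tiling favours the cluster, which fills its window exactly while other domains may be split by theirs. By the control antibody the cluster ranked 8814 of 18310.

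**Figure D1:**
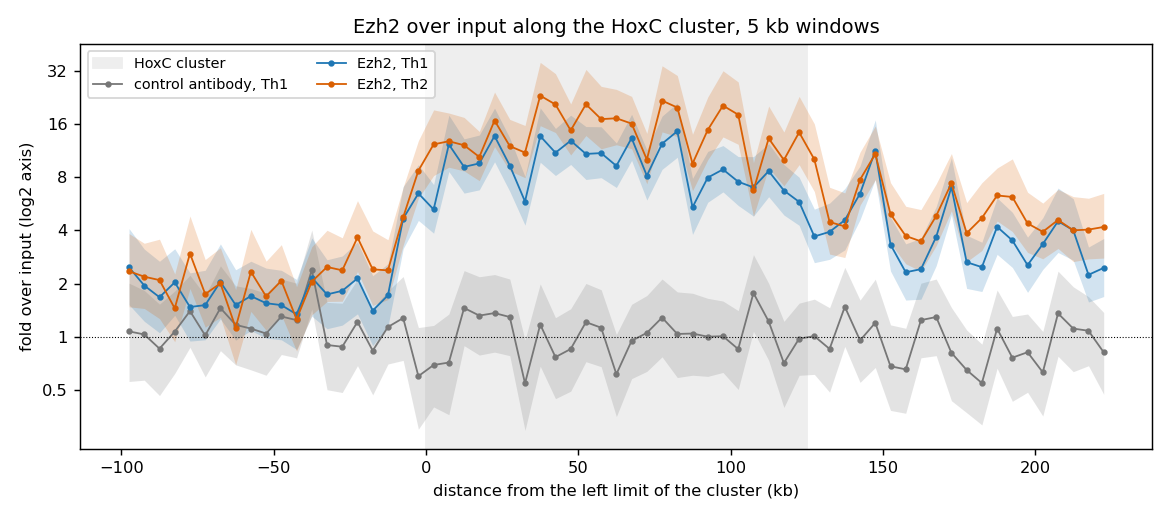
Fold over input in 5 kb windows against the distance from the left limit of the HoxC cluster, for Ezh2 in Th1 and Th2 and the Th1 control antibody, on a log2 axis with 95% exact intervals as bands. Inside the shaded cluster the windows lie between 5.25-fold and 14.5-fold in Th1 and between 6.72-fold and 23.1-fold in Th2, while the control antibody lies between 0.546-fold and 1.77-fold. Past the Hoxc4 end Th1 falls to 3.69-fold in the first window, and a further peak stands at 145 kb.

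Bin by bin, nearly every kilobase was enriched. A bin was called where a one-sided exact binomial test of Ezh2 against input had a Benjamini-Hochberg adjusted p below 0.05 over all bins with at least 10 positions, and the fold, with 0.5 added to each count, was at least 2. In Th1, 124 of the 125 bins were called, where 0.992% of all tested bins were. In Th2, 125 of 125 were called, against 1.21% of all tested bins. The Th1 control antibody gave 0 of 113 tested bins in the cluster, against 0.00151% of all tested bins. A fold of at least 8 was reached by 79 of the 125 bins in Th1, against 0.392% of all tested bins, and by 109 in Th2, against 0.646%.

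Positions per bin of the cluster ran from 23 to 126 in Th1, with a median of 56, and from 40 to 205 in Th2, with a median of 104. The inputs ran from 3 to 16 (median 9) and from 0 to 13 (median 6), and the control antibody from 0 to 11 (median 5). No Ezh2 bin of the cluster was as low as the highest input bin of its cell type. Over all bins of the genome the Ezh2 medians were 3 in Th1 and 5 in Th2.

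The Ezh2 positions varied more between the bins than counting alone gives. Their variance over the 125 bins was 7.07 times the mean in Th1 and 9.96 times in Th2, where counting error alone gives about 1. For the inputs it was 0.981 and 1.19 times, and for the control antibody 1.14 times. Across the 125 bins, which are neighbours on 1 chromosome and no replicates, Ezh2 positions in Th1 and Th2 had a Pearson correlation of 0.836 and a Spearman correlation of 0.827. The correlation of Ezh2 with the input of the same cell type was 0.0503 in Th1 and 0.0236 in Th2 (Pearson). Of the 20 bins with the most Ezh2 positions in each cell type, 14 were shared, and of the 20 with the fewest, 15 were. The 5 lowest bins of each cell type, by positions or by fold, had none in common.

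**Figure D2:**
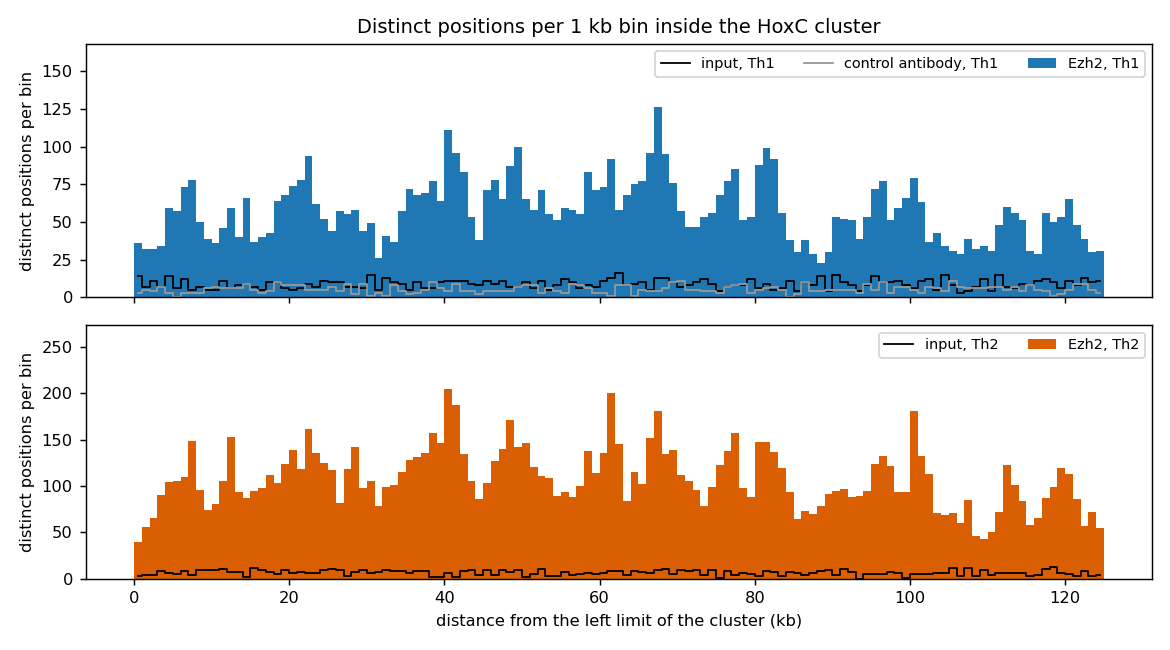
Distinct positions per 1 kb bin inside the HoxC cluster against the distance from its left limit in kb, with Ezh2 as bars and the input and the Th1 control antibody as lines, Th1 above and Th2 below. Ezh2 peaks stand near 40 and 67 kb in both cell types. Among the 5 highest bins are also those at 81 kb in Th1 and at 61 and 100 kb in Th2. All Ezh2 bars lie above the input lines, which run between 3 and 16 in Th1 and between 0 and 13 in Th2.

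The peaks lay inside the cluster rather than at its ends. Peaks are named by their positions, a choice made after the values were seen, because the highest folds turned on very few input positions. The bin with the most Ezh2 positions in Th2 lay 40 kb in, from 102785001 to 102786000. It held 205 Ezh2 positions in Th2, 29.4-fold over input (13.3 to 81.0), and 111 in Th1, 14.5-fold (lower bound 7.82). In Th1 the top bin lay 67 kb in, from 102812001 to 102813000, with 126 positions in Th1 (14.0-fold, lower bound 7.88) and 181 in Th2 (17.3-fold, 8.91 to 38.4). Both bins were among the 5 highest in either cell type.

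Other peaks were among the 5 highest bins by count in 1 cell type only. The counts are not scaled to the library totals, and the Ezh2 library of Th2 was the larger. At 61 kb, from 102806001 to 102807000, Ezh2 held 200 positions in Th2, the second highest of its bins, and 92 in Th1. The bin at 100 kb, from 102845001, held 181 in Th2 and 79 in Th1. At 49 kb, from 102794001, the counts were 100 in Th1, the third highest there, and 142 in Th2. When the Th1 and Th2 libraries were compared in windows of 1 kb, 0 of the 125 in the cluster passed the exact test after adjustment.

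Ranked by fold, the Th1 bins that stood highest were at 66 kb (96 Ezh2 and 5 input positions, 27.7-fold, 11.5 to 87.2), 82, 75, 7 and 80 kb, with 4 to 6 input positions each. In Th2 they were at 93, 75, 41, 38 and 99 kb, with 0 to 2 input positions. The bin at 93 kb held 89 Ezh2 and 0 input positions. With a floor of 3 input positions in place of 0 this is 25.5-fold, and the exact lower bound is 20.3-fold. These folds have wide intervals, such as 21.9 to 669 at 41 kb, and give no order among the bins.

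At the Hoxc13 end the signal rose within a few kilobases. The bin from 102751001 to 102752000, which holds the approximate position of Hoxc13, had 73 Ezh2 positions in Th1, 8.77-fold over input (4.73 to 17.7), and 110 in Th2, 11.8-fold (5.79 to 28.1). The next bin was the fourth highest by fold in Th1, with 78 and 149 positions, 22.5-fold over input in Th1 (9.23 to 71.2) and, with 4 input positions, above 12.2-fold in Th2 by its lower bound. At the left limit itself, 7 kb away, the counts were 36 and 40. In Th2 this was a dip, since the bin from 102740001, outside the limit, held 85 and the bin from 102746001, inside it, 56. Th1 held 41 and 32 positions in these bins, and 22 in the bin from 102743001, so it had no such dip. At the Hoxc4 end, the bin from 102866001 held 48 and 86 positions, and the bin after it 39 and 57.

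In Th1 low folds stood at both limits of the cluster, and in both cell types at dips within it. The lowest Th1 window of 5 kb by fold was the one at the left limit, at 5.25-fold (3.85 to 7.25), where Th2 stood at 12.2-fold (8.16 to 19.2). The inputs differed there, with 53 positions in Th1 and 25 in Th2, under 193 and 356 Ezh2 positions. The windows from 85 and 105 kb held fewer Ezh2 positions in Th1, 150 and 165. The window at the right limit, from 120 kb, stood at 5.79-fold in Th1 (4.27 to 7.98) and at 14.3-fold in Th2 (9.40 to 22.9). The window from 30 kb was low in Th1 too, at 5.82-fold (4.28 to 8.04), with 11.0-fold in Th2 (7.93 to 15.7). The 1 bin not called in Th1 lay 88 kb in, from 102833001 to 102834000, with 23 Ezh2 and 14 input positions (2.37-fold, 1.17 to 4.98, one-sided exact test, adjusted p = 0.276). In Th2 the same bin held 78 and 8 positions and was called. The window of 5 kb from 85 kb, which contains it, stood at 5.40-fold for Th1 (3.79 to 7.86) and at 9.53-fold for Th2 (6.70 to 14.0). In Th2 the lowest window lay from 105 kb, at 6.72-fold (4.81 to 9.64). Th1 stood at 6.99-fold there (4.81 to 10.4), and the control antibody had its highest window within the cluster, 1.77-fold (1.08 to 2.91). The lowest bin by fold in Th2 was within it, at 109 kb, with 43 Ezh2 and 9 input positions (4.11-fold, 1.97 to 9.58).

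In steps of 25 kb from the Hoxc13 end, Ezh2 in Th1 stood at 9.58, 10.3, 10.5, 9.63 and 7.07-fold over input. In Th2 the steps were 12.7, 15.5, 15.6, 16.7 and 11.8-fold. The last step, toward Hoxc4, was the lowest in both cell types. Its interval in Th1, 6.12 to 8.20, lay below those of the other 4 steps, of which the nearest began at 8.26. In Th2 its interval, 10.0 to 13.996, lay just below that of the fourth step, which began at 14.03, and overlapped those of the first 3. The steps were not tested against each other, and overlapping intervals do not show that steps are equal. The control antibody lay between 0.895-fold and 1.09-fold in the 5 steps.

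The domain was cut off on the Hoxc13 side. Called bins merged over gaps of at most 1 bin gave a run of 133 kb in Th1, from 102739001 to 102872000, and of 140 kb in Th2, from 102735001 to 102875000. It began 6 kb before the left limit in Th1 and 10 kb before it in Th2, and was the widest of 5664 regions in Th1 and of 6223 in Th2, ahead of 72 and 78 kb. This lead depends on the calls. Called on both Ezh2 libraries together, the region around the cluster was 174 kb wide and the next widest 139 kb. In the first 10 kb outside the left limit the fold over input was 5.63 for Th1 (4.34 to 7.38) and 6.66 for Th2 (5.17 to 8.71). In the next 10 kb it was 1.57-fold (1.17 to 2.12) and 2.39-fold (1.78 to 3.24). From there out to 100 kb the steps of 10 kb lay between 1.42-fold and 2.19-fold in Th1 and between 1.55-fold and 2.91-fold in Th2, above the median window of the genome.

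On the Hoxc4 side the run of each library had an edge, with further peaks past it. The run ended 2 kb past the right limit in Th1 and 5 kb past it in Th2. In the first 5 kb past the limit the fold over input was 3.69 for Th1 (2.63 to 5.27) and 10.1 for Th2 (6.63 to 15.97), and 20 kb past the limit it was 11.3 (7.77 to 16.8) and 10.8 (7.72 to 15.5). Of the 100 bins past the limit, those of the run included, 44 were called in Th1 and 69 in Th2, against 8 and 14 of the 100 on the Hoxc13 side. Over those 100 kb the fold over input was 3.78 for Th1 (3.50 to 4.09) and 5.39 for Th2 (4.96 to 5.86). Over 100 kb on the Hoxc13 side it was 2.11-fold (1.92 to 2.31) and 2.60-fold (2.37 to 2.85). The intervals of the sides do not overlap in either cell type, and the control antibody did not follow, at 0.918-fold (0.821 to 1.03) past Hoxc4 and 1.13-fold (1.01 to 1.27) before Hoxc13.

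Further peaks stood out on the Hoxc4 side. The strongest bins outside the cluster lay 20 to 22 kb past its right limit. The bin from 102891001 to 102892000 held 81 Ezh2 positions in Th1 (16.7-fold, 7.74 to 42.8) and 147 in Th2 (10.5-fold, 5.85 to 20.8). Both counts lie above the median bin of the cluster, 56 and 104. This bin lay past the run of either library. It was inside the region called on both Ezh2 libraries together, which ran on to 102908000. A narrower peak from 102916001, 46 kb past the limit, held 70 positions in Th1 and 93 in Th2. Neither was placed on a gene. After Hoxc4 the gene table lists the noncoding RNAs Gm30528, Gm28876 and D930007P13Rik, and then Smug1, a DNA repair glycosylase, and Cbx5, the heterochromatin protein HP1 alpha.

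A longer look on the Hoxc4 side, added after the values were seen, found more peaks before the fold fell to near input. It was 1.46 for Th1 (1.09 to 1.94) and 1.92 for Th2 (1.44 to 2.59) between 110 and 120 kb past the limit, and 4.49 (3.55 to 5.72) and 5.01 (3.98 to 6.37) between 130 and 140 kb. Between 140 and 150 kb past the limit the fold over input was still 2.61 for Th1 (2.05 to 3.34) and 3.56 for Th2 (2.70 to 4.74). Between 150 and 160 kb it was 1.19-fold (0.898 to 1.58) and 1.16-fold (0.883 to 1.53). It stayed between 0.961-fold and 1.24-fold in Th1, and between 1.05-fold and 1.25-fold in Th2, in the next 5 steps, out to 210 kb. Farther out it rose again in places, to 1.69 for Th1 (1.28 to 2.24) and 1.87 for Th2 (1.44 to 2.46) between 210 and 220 kb and to 2.38 (1.82 to 3.12) and 3.40 (2.49 to 4.72) between 290 and 300 kb, where the look ended.

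**Figure D3:**
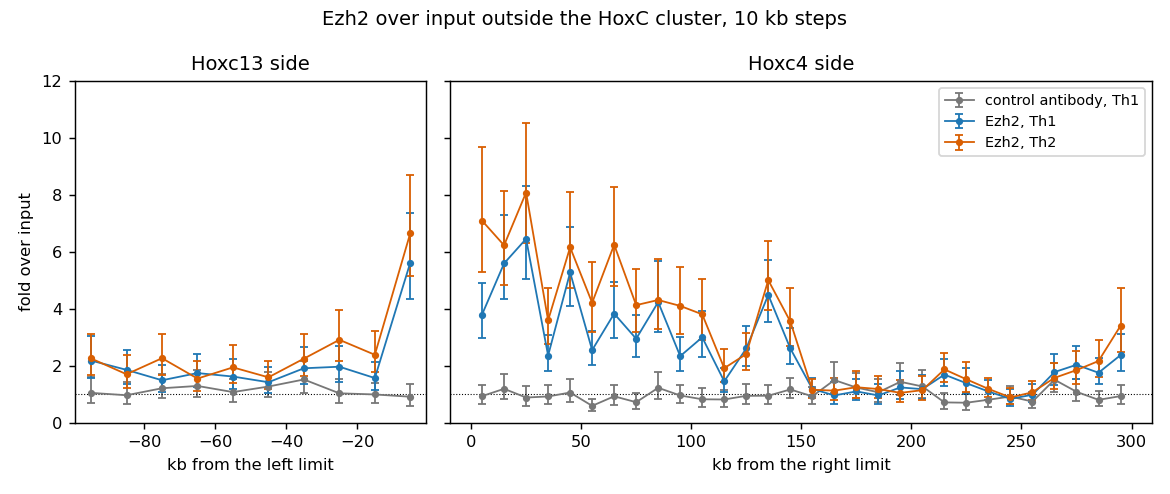
Fold over input in steps of 10 kb outside the HoxC cluster, with distance from its limits in kb and 95% exact intervals as bars, for Ezh2 in Th1 and Th2 and the Th1 control antibody. On the Hoxc13 side Ezh2 falls from 5.63-fold and 6.66-fold to 1.57-fold and 2.39-fold within 20 kb, while on the Hoxc4 side it goes up and down between 2.34-fold and 6.46-fold in Th1 out to 100 kb, falls to 1.46-fold and 1.92-fold between 110 and 120 kb and rises to 4.49-fold and 5.01-fold between 130 and 140 kb.

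The design sets Th1 beside Th2, and the Th2 library had more Ezh2 in the cluster. For a common scale, each ratio was divided by its median over all 9480 windows of 5 kb that were called on both Ezh2 libraries together. That median was 0.893 for Th1 over Th2 after division by the library totals, a shift of -0.16 on the log2 scale. Relative to it, Th2 had 1.21-fold more Ezh2 positions over the whole cluster than Th1 (1.18 to 1.25, two-sided exact binomial test, p = 1.95e-40). By library totals the difference was 1.36-fold (1.32 to 1.40). Sequencing run and cell type cannot be told apart, because the names of the deposited Ezh2 files carry run codes that differ between Th1 and Th2.

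The inputs differed in the cluster too. Th2 held 0.888 times the input positions of Th1 there after division by the totals (0.810 to 0.973), which raises the fold over input in Th2. Once the inputs entered a conditional exact test, Th2 was 1.33-fold higher relative to the median window (p = 6.13e-09). With the input of Th1 under both libraries, Ezh2 stood at 9.42-fold in Th1 and 12.8-fold in Th2. The direction was the same in each case.

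The difference was spread over the cluster. Relative to the median window, 24 of the 25 windows of 5 kb had more Ezh2 positions in Th2, as had 50% of all 9480 by the choice of the median. The ratios of Th2 over Th1 ran from 0.972 to 1.62 with a median of 1.21. By the exact test, adjusted over all 9480 windows, 10 of the 25 were higher in Th2, against 4.72% of all windows, and 0 were higher in Th1, against 2.53%. That count depends on the scale and the window: it was 23 by library totals, 20 with all reads and 0 of the 125 windows of 1 kb. The windows of the cluster held more positions than most, with a median of 822 Ezh2 positions over both libraries against 165. Among the 715 windows with at least 470 positions, the lowest in the cluster, 20.1% were higher in Th2 and 0.280% in Th1, those of the cluster included.

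The window with the highest ratio lay from 85 kb, around the Th1 dip. Th1 had 150 Ezh2 positions in it and Th2 had 377, which is 1.62 after scaling to the median (1.34 to 1.97; adjusted p = 5.27e-05 by the exact test). Next was the window from 30 kb, with 210 and 499, or 1.53 (1.30 to 1.81; adjusted p = 2.79e-05 by the exact test). The window from 100 kb followed, with 256 and 566, or 1.42 (1.23 to 1.66; adjusted p = 2.13e-04 by the exact test). Of the other 7 windows called, 6 lay in the 10 to 45 kb next to Hoxc13 and 1 from 50 kb, with ratios of 1.21 to 1.39. The 1 window with a ratio below 1 lay from 65 kb and contains the highest Th1 bin, with 470 and 709 positions and a ratio of 0.972 (0.864 to 1.10).

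With the inputs in the test, 0 of the 25 windows passed after adjustment, against 0.0527% of all windows higher in Th2 and 0.116% higher in Th1. The smallest adjusted p of the 25 was 0.275, by the conditional exact test. Before adjustment 6 windows had p below 0.05 and were higher in Th2, against 4.53% of all windows, and 0 were higher in Th1, against 4.32%. Relative to the median window, 21 of the 25 had the higher fold in Th2, as had 50% of all windows by the choice of the median. No single window was therefore shown to differ in Ezh2 over input, while the cluster as a whole did.

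**Figure D4:**
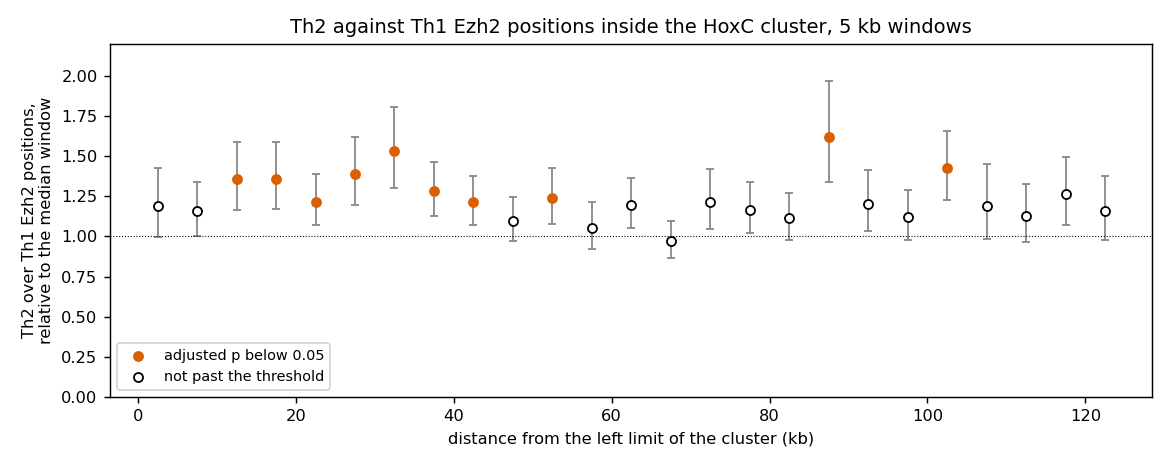
Ratio of Th2 to Th1 Ezh2 positions in the 25 windows of 5 kb of the HoxC cluster, relative to the median of all called windows, against the distance from the left limit in kb, with 95% exact intervals as bars and filled points for an adjusted p below 0.05. The points lie between 0.972 and 1.62, and 10 of 25 are filled, all above 1.

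The cluster was set beside the other 3 widest regions called on both Ezh2 libraries together. These lay on chromosome 11 from 96103001 to 96242000, chromosome 2 from 74482001 to 74606000 and chromosome 6 from 52153001 to 52245000. The table puts the HoxB, HoxD and HoxA genes on these chromosomes, but they were not placed on the regions. The regions were called for their Ezh2, while the cluster was cut by gene positions, so their limits are not of the same kind. Their folds were 7.06, 9.03 and 9.60 in Th1 and 8.25, 12.2 and 12.0 in Th2.

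Over input, Ezh2 in the cluster was 1.75 times that of the region on chromosome 11 in Th2 (1.58 to 1.92, two-sided Fisher's exact test, adjusted over 9 comparisons, p = 2.51e-28) and 1.33 times in Th1 (1.22 to 1.46, adjusted p = 2.60e-09, same exact test). Against the regions on chromosomes 2 and 6 it was 1.18 times (1.06 to 1.31, Fisher's exact test, adjusted p = 0.00253) and 1.20 times (1.08 to 1.33, adjusted p = 0.00169) in Th2. In Th1 the same ratios were 1.04 (0.949 to 1.15) and 0.981 (0.890 to 1.08), with adjusted p of 0.496 and 0.793 by Fisher's exact test. This order depends on the limits. The region of chromosome 15 called in the same way as the other 3 was wider than the cluster, 174 kb from 102734001 to 102908000, and its fold was 8.14 for Th1 (7.71 to 8.61) and 12.2 for Th2 (11.5 to 12.96). In a comparison added after the values were seen, it was 0.997 times the region on chromosome 2 in Th2 (0.907 to 1.10, Fisher's exact test, adjusted p = 0.961) and 1.01 times that on chromosome 6 (0.917 to 1.12, adjusted p = 0.922). In Th1 it was lower than both, at 0.902 times (0.826 to 0.986, Fisher's exact test, adjusted p = 0.0353) and 0.848 times (0.773 to 0.930, adjusted p = 0.00213). With limits of the same kind it exceeded the region on chromosome 11 alone, by 1.15 times in Th1 (1.06 to 1.26, Fisher's exact test, adjusted p = 0.00245) and 1.48 times in Th2 (1.35 to 1.62, adjusted p = 2.99e-16).

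The shift toward Th2 was not particular to the cluster. Relative to the median window, the ratio of Th2 to Th1 Ezh2 positions was 1.21 in the cluster (1.18 to 1.25), and 1.12 (1.08 to 1.15), 1.22 (1.18 to 1.26) and 1.12 (1.08 to 1.16) in the regions on chromosomes 11, 2 and 6. The cluster exceeded chromosomes 11 and 6 by 1.09 times (adjusted p = 7.19e-04) and 1.08 times (adjusted p = 0.00136) by Fisher's exact test. For chromosome 2 the ratio was 0.994 (0.952 to 1.04, Fisher's exact test, adjusted p = 0.793). Among the 146 regions of at least 20 kb, the one around the cluster included, the median ratio was 1.10, and 28 stood above the cluster.

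**Figure D5:**
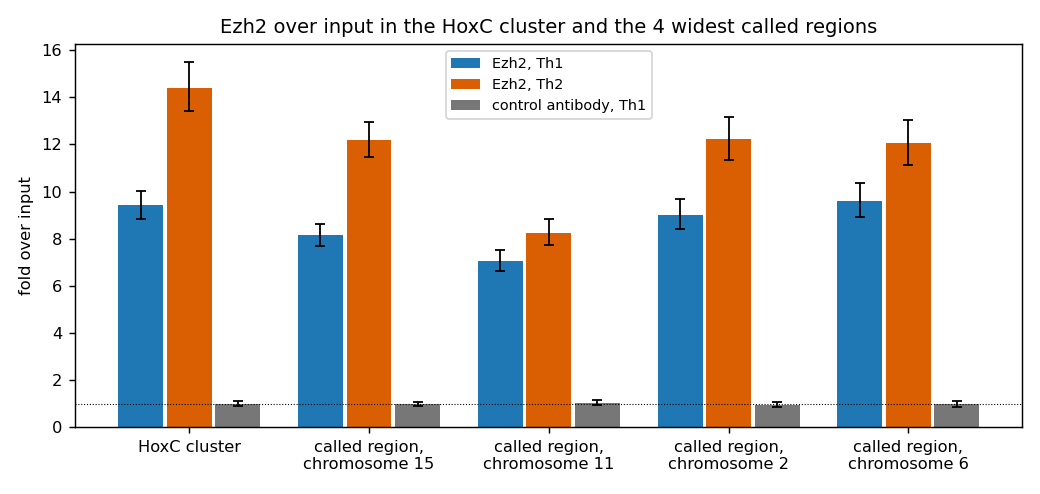
Fold over input of Ezh2 in Th1 and Th2 and of the Th1 control antibody in the HoxC cluster and in the 4 widest called regions, of which the one on chromosome 15 holds the cluster, as bars from 0 with 95% exact intervals. Between its gene limits the cluster stands at 14.4-fold in Th2, while the called region around it, 12.2-fold, is level with chromosome 2, 12.2-fold, and chromosome 6, 12.0-fold; in Th1 that region, 8.14-fold, lies below both.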

How the data were processed

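The 6 ChIP-seq libraries had been deposited, of which 5 held chromosome 15. The submitters' processing notes name CASAVA and mm9; for alignment settings, read extension and filters the entry is: not given in the sources used here. Each line of a deposited file held 1 interval, nearly always 119 bases from start to end, and how many reads fell on it (a count, not normalised by the authors), with no strand. Per the labels' protocols, fragments of 170 to 250 bp went through 18 PCR cycles and 36 sequencing cycles.

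Each distinct interval was counted once at its midpoint in 1 kb bins and scaled by the library's total on chromosomes 1 to 19 and X. Bins were tested over the whole genome and only those of the cluster are given. Values were computed with Python 3.11.15, numpy 2.4.6 and scipy 1.17.1, and the steps were tested on simulated data. Named bins were the 5 highest and 5 lowest by fold in each cell type; peaks by positions, the sequences of microRNAs, and the steps beyond 100 kb were added later. The members, lists and tests were chosen with earlier results of these data known. Alternatives were all reads, 2 kb bins, background scaling (scaling on 10 kb bins with less than median enrichment), the other input, the control antibody as background, strict thresholds, equal depth, no minimum of positions, other window sizes, other gaps and limits moved in by 10 kb.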

Additional observations from a re-analysis of the deposited data

Results flagged for a closer look

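Ezh2 over input across the HoxC cluster was 1.33-fold higher in Th2 than in Th1, relative to the median of all called windows (conditional exact test of both Ezh2 and both input libraries, p = 6.13e-09). It is listed because the test of the difference itself passed between the Th1 and Th2 libraries. By the library totals the difference was 1.53-fold, and by the Ezh2 positions alone 1.21-fold. The inputs of the cluster differed the other way, at 0.888 times as many positions in Th2, which raises the fold over input in Th2. With 1 library per group, cell type and sequencing run cannot be told apart.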

How the results depend on the processing

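With background scaling, Ezh2 over input across the cluster was 13.4-fold in Th1 and 20.3-fold in Th2. With the input of the other cell type it was 10.6-fold and 12.8-fold, and with the control antibody as background it was 12.6-fold in Th2. All reads and limits moved in by 10 kb kept both folds within their intervals. Called bins of the cluster lay between 117 and 125 under all 8 alternatives in either cell type, where the control antibody, run with all reads alone, gave 0. The domain of Th1 was 94 kb with no gap, and that of Th2 was 173 kb with gaps of up to 3 bins; the other widths lay between 133 and 141 kb.

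The direction of the difference between Th1 and Th2 over the cluster was the same under all 4 alternatives, with Th1 at 0.736 to 0.810 times Th2. The number of windows higher in Th2 was not: it was 23 with library totals, 20 with all reads, 0 with windows of 1 kb and 0 with the inputs in the test. Smaller windows hold fewer positions, the inputs bring counting error of their own, and all reads count repeated reads on an interval separately. What moved these counts, or the other values, was not tested. Against chromosome 2, the ratio of Th2 to Th1 positions was 0.956 with all reads, where the exact test passed (Fisher's exact test, p = 0.00285). With the called region in place of the gene limits, Ezh2 over input relative to chromosome 2 turned to 0.902 in Th1 and 0.997 in Th2, and relative to chromosome 6 it was 0.848 in Th1, now past the threshold, and 1.01 in Th2, no longer past it (the region is wider, 174 kb). No paired analysis was possible because there was 1 library for each group. Depth limits single bins most, since an input bin of the cluster held at most 16 positions.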
